A study of Mus musculus with 8 samples.

Results

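Integrins, laminins and nidogens are the genes of cell adhesion to the basement membrane and the surrounding matrix, and 40 of them were followed across 8 mouse RNA-seq libraries. Members were taken by symbol: integrin alpha and beta chains (27 genes), laminin alpha, beta and gamma chains (11 genes) and the nidogens Nid1 and Nid2 (2 genes), with integrin-binding proteins and Itgbl1 left out. They were 40 of the 23478 genes in the count table, and all 40 passed the filter on low counts, as did 17069 genes of the whole table.

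The study asked how disseminated cancer cells differ from tumours in breast cancer, and what the cytokine side of a CD4 T helper response does to them. The DCC IFN-gamma group held disseminated cancer cells (DCC) from bone marrow of mice in which breast cancer had spread spontaneously, treated with interferon-gamma, and the DCC control group held the same kind of cells without it. TUBO is an established mouse mammary carcinoma cell line, and the early lesion group held cancer cells isolated from an early mammary tumour, whose sample names add neuT, an activated rat Erbb2 oncogene. Each of the 4 groups had 2 libraries, labelled biological replicates. The genotype label was WT in all 4 groups, also in the early lesion samples named neuT, and standard culture methods are given for all of them. The dose and duration of interferon-gamma, the strain, the age, the number of animals, the promoter of the transgene and whether cells were pooled are not given in the sources used here. Since nothing says that replicates came from separate cultures or animals, p-values measure the spread between these libraries, which may be technical.

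Integrins are heterodimers of 1 alpha and 1 beta chain that sit in the plasma membrane and tie the cytoskeleton to matrix or to other cells, and the pairing sets the ligand. Laminins are trimers of an alpha, a beta and a gamma chain that polymerise into the basement membrane, where nidogens link them to collagen IV. In mammary epithelium, laminin-binding integrins anchor cells to this membrane, while collagen- and fibronectin-binding integrins are typical of mesenchymal cells and the Itgb2 and Itgb7 integrins of leukocytes.

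Libraries held 15432210 to 30168475 reads on genes. Reads not assigned to a gene took 63.7% of all counted reads in DCC control replicate 1 and 57.2% in early lesion replicate 2, against 35.2% to 45.1% in the other libraries. Those outside genes, on no annotated feature, took 49.2% and 44.1% in these 2 libraries, against 18.3% to 31% in the others. Of 1450 olfactory and vomeronasal receptor genes, 47.7% had a count in DCC control replicate 1 and 63.7% in early lesion replicate 2, against 0.966% to 11.9% in the other libraries. Their 99th percentile was 1.4 CPM (read counts scaled to library size) in DCC control replicate 1 and 0.758 CPM in early lesion replicate 2. The DCC libraries went against an epithelial identity on a list of 12 epithelial markers, which summed to 0.66 and 0.459 CPM in DCC IFN-gamma and to 7.24 and 4.32 CPM in DCC control, against 6160 and 6620 CPM in TUBO and 3400 and 3230 CPM in early lesion. Epcam was at 0 in both DCC IFN-gamma libraries and in DCC control replicate 1. The 7 myoepithelial and basal markers summed to 9.24 and 15.4 CPM in DCC IFN-gamma, 91.8 and 118 CPM in DCC control, 7.35 and 2.1 CPM in TUBO and 4.96 and 9.1 CPM in early lesion. Trp63 took 63.6 and 80 CPM of it in DCC control, where 4 of the 7 were under 1 CPM. Of 5 tested, 4 were higher in DCC control than in TUBO and 2 than in early lesion (22.1% and 19.1% of all genes), and 3 were lower with interferon-gamma (8.83%), with none the other way. A list of 9 fibroblast and stromal markers summed to 663 and 981 CPM in DCC IFN-gamma, 4540 and 5040 CPM in DCC control, 16.8 and 11.3 CPM in TUBO and 24.2 and 28.3 CPM in early lesion, with Col1a1 the highest gene in the DCC libraries. In bulk RNA, fewer cells of a type and less RNA per cell cannot be told apart.

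Interferon-gamma changed part of the repertoire. The laminin-binding chains Itga3 and Itga6 and the leukocyte chains Itgal, Itgax, Itgb2 and Itgb7 were among those higher in DCC IFN-gamma, Itga6 by 8.96-fold and Itga3 by 2.75-fold. The collagen-binding chains Itga1 and Itga10, the chains Itga8 and Itgb6 and the laminin chains Lama1 and Lamb2 were lower, Lamb2 by 2.17-fold. In edgeR's quasi-likelihood test at a Benjamini-Hochberg adjusted p under 0.05, 7 members were higher, 6 were lower and 27 were not called. Over all genes 21.4% were called, 12.6% higher and 8.83% lower. The median log2 fold change was -0.48 over the 40 members and -0.2 over all genes tested.

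Promoters are shown for 3 members that rose with interferon-gamma, Itgax, Itgb7 and Itga3, to set their sequences beside the change. Each is the 250 bases before the RefSeq start in GRCm38.p6, read on the strand of the gene, with motif matches in capitals. Itgax lies at chr7:128129300-128129549 on the plus strand, Itgb7 at chr15:102231936-102232185 on the minus strand and Itga3 at chr11:95076715-95076964 on the minus strand.
Itgax: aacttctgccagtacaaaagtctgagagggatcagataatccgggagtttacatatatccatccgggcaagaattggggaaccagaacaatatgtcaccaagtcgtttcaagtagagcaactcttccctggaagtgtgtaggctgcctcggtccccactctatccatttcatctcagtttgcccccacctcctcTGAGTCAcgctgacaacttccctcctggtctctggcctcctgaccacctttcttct
Itgb7: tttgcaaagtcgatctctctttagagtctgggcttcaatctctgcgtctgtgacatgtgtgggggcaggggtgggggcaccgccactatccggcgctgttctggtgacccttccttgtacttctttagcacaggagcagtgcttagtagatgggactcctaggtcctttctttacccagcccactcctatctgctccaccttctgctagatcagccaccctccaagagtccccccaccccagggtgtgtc
Itga3: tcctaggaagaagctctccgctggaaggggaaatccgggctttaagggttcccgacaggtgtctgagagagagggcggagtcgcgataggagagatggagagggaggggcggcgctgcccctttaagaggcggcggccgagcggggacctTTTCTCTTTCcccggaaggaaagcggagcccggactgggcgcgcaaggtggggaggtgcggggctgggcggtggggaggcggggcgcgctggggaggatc
Motifs were searched on both strands, without regard to overlap: the interferon-stimulated response element core (GAAA, any 2 bases, GAAA), the PU.1 core (GAGGAAGT) and the AP-1 motif (TGANTCA). They occurred in 2.98%, 2.44% and 6.75% of 32851 windows of the same length. The capitals mark AP-1 in Itgax and the response element core in Itga3, and none was found in Itgb7. A second RefSeq start of Itga3, with its window at chr11:95069199-95069448, held no match. The 25 members with a promoter in the table had 28 windows, and the response element core was in 2 of them, the PU.1 core in 4 and AP-1 in 1. A match is a string of letters in this window and says nothing of binding.

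DCC control cells and early lesion cells carried different integrins. The collagen-binding Itga10 and Itga11, the fibronectin receptor chain Itga5 and the nidogen Nid1 were higher in DCC control, while Itga6, Itga8, Itgb4 and Lama5 were lower. Of the members, 11 were higher and 9 lower in DCC control and 20 were not called, against 37.7% of all genes called, 19.1% higher and 18.7% lower. The median log2 fold change was 0.83 over the members and 0.23 over all genes.

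Against TUBO, 16 members were higher and 10 lower in DCC control, and 14 were not called. Over all genes 42% were called, 22.1% higher and 19.9% lower. The median log2 fold change was 1.55 over the members and 0.37 over all genes. Members under 1 CPM in both groups enter it, such as Itgax (means 0.83 and 0 CPM) and Lamc3 (0.792 and 0 CPM). In DCC control replicate 1 the olfactory 99th percentile was 1.4 CPM. Members this low also enter the medians given above for interferon-gamma and for early lesion, and their part was not tested. The comparison with TUBO shares its DCC control libraries with that of early lesion. The values of both are therefore given side by side below, and their likeness is no result.

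TUBO and early lesion cells differed at 5 members, while 35 were not called. Itga9 and Lama5 were among those higher in TUBO, and Itga8 and Lama1 were lower. Over all genes 24.1% were called, 11.4% higher and 12.7% lower, and the median log2 fold change was -1.07 over the members and -0.27 over all genes. That median includes members under 1 CPM in both groups, such as Itgax (means 0 and 0.201 CPM) and Itgb2 (0 and 0.245 CPM). In early lesion replicate 1 both were at 0. In replicate 2 they had 0.401 and 0.491 CPM, below the olfactory 99th percentile of 0.758 CPM there. The part of this background in the median was not tested. Without early lesion replicate 1, so that the group rests on replicate 2, 11 members were lower in TUBO, with Itga2b, Itga4, Itga5, Itgal, Itgam, Itgax, Itgb2, Lama2 and Lama3 added (edgeR adjusted p = 0.000802 to 0.0475). Across the 4 comparisons 29 members, 72.5%, were called at least once and 11 in none, against 58.2% of all genes called at least once.

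**Figure D1:**
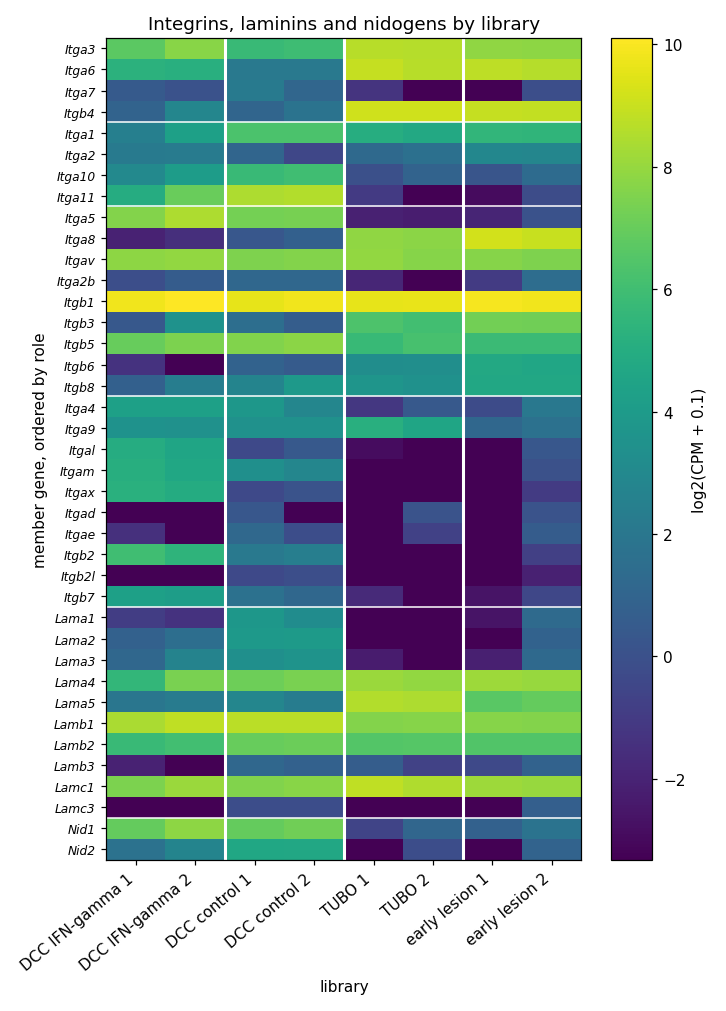
Level of 39 of the 40 members (rows, by role) in each of the 8 libraries (columns), as log2(CPM + 0.1) on the colour scale. Itgb1 is high in every library, at 787 to 1100 CPM, while Itgb4 is at 466 to 559 CPM in TUBO and early lesion and at 1.8 to 6.97 CPM in the DCC libraries.

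**Figure D2:**
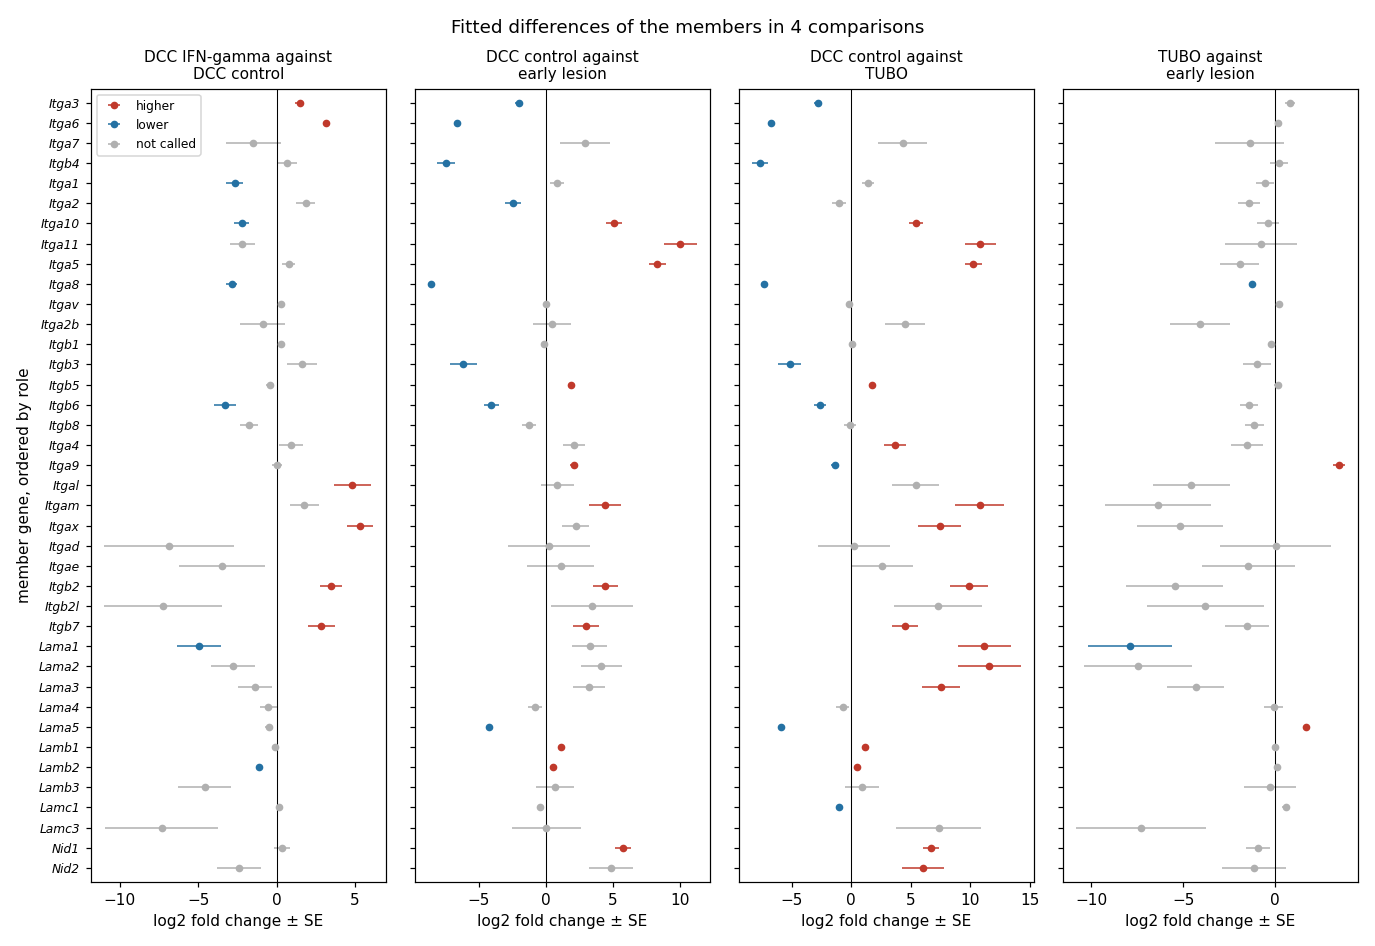
Fitted log2 fold change with its standard error (horizontal axis) of the same 39 members (rows) in the 4 comparisons, red for called higher, blue for called lower and grey for not called. The panel of DCC control against TUBO has the most coloured points and TUBO against early lesion the fewest. The points of members at 0 in 1 group are fitted values, not bounds.

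Among the laminin-binding integrins, Itga6 (chromosome 2, 71745616 to 71858416 in GRCm38) encodes the alpha chain that pairs with Itgb1 or Itgb4. It had 40.1 and 35.9 CPM in DCC IFN-gamma, 4.2 and 4.28 CPM in DCC control, 487 and 411 CPM in TUBO and 431 and 391 CPM in early lesion. The libraries of DCC IFN-gamma stood above those of DCC control and below all others, with no overlap. Fitted differences, here and for the other members, are log2 fold changes ± SE. Itga6 rose by 3.16 ± 0.18 with interferon-gamma (adjusted p = 2.44e-06 in edgeR), and the call held with each of the 4 libraries left out in turn. Log2 fold changes of DCC control were -6.60 ± 0.20 against early lesion and -6.72 ± 0.20 against TUBO (adjusted p = 1.4e-08 and 1.42e-08 in edgeR). TUBO and early lesion overlapped at Itga6 and were not called apart (0.13 ± 0.15, adjusted p = 0.552).

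Itgb4 (chromosome 11, 115974709 to 116008412) encodes the hemidesmosomal beta chain, the partner of Itga6 that binds plectin inside the cell. Its levels were 1.8 and 6.97 CPM in DCC IFN-gamma, 2.01 and 3.33 CPM in DCC control, 559 and 555 CPM in TUBO and 490 and 466 CPM in early lesion. Both DCC groups overlapped and lay far below both others. Interferon-gamma did not move Itgb4 past the threshold (0.67 ± 0.60, adjusted p = 0.452 in edgeR), although it was called without DCC IFN-gamma replicate 1 (adjusted p = 0.000746). The log2 fold change of DCC control was -7.45 ± 0.66 against early lesion and -7.67 ± 0.67 against TUBO (adjusted p = 0.00021 and 0.000177 in edgeR). Per kb of exon, Itga6 stood to Itgb4 as 17.4 and 4.01 to 1 in DCC IFN-gamma, as 1.63 and 0.999 to 1 in DCC control, as 0.678 and 0.576 to 1 in TUBO and as 0.684 and 0.652 to 1 in early lesion. The level of Itga6 relative to Itgb4 was thus higher in both DCC IFN-gamma libraries than in all others. Of the 12 epithelial markers given above, 11 were lower in DCC control against early lesion and 11 against TUBO, as was Itgb4, where 18.7% and 19.9% of all genes were lower. With interferon-gamma 6 of the 12 were lower and none higher, against 8.83% of all genes lower. Itgb4 was not called there, and Itga3 and Itga6 rose. In DCC control 9 and 11 of the 12 markers were under 1 CPM, and the highest, Grhl2, had 1.64 and 1.27 CPM. The olfactory 99th percentile was 1.4 and 0.515 CPM in these libraries, so the falls start near background. In TUBO against early lesion 4 of the 12 markers were higher, against 11.4% of all genes. Their part in the Itgb4 differences was not tested.

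Itga3, the alpha chain of a further laminin receptor with Itgb1, had 106 and 209 CPM in DCC IFN-gamma, 53.9 and 60.8 CPM in DCC control, 412 and 397 CPM in TUBO and 236 and 229 CPM in early lesion. The groups did not overlap. Interferon-gamma raised it by 1.46 ± 0.27 (adjusted p = 0.00575 in edgeR), a change not called when DCC control replicate 1 was omitted (adjusted p = 0.0538). Log2 fold changes of DCC control were -2.02 ± 0.28 against early lesion and -2.82 ± 0.29 against TUBO (adjusted p = 0.000425 and 6.01e-05). TUBO against early lesion was 0.80 ± 0.27 and missed the threshold (adjusted p = 0.0608). Itga7, the laminin receptor chain known from skeletal muscle, stayed at 0 to 4.32 CPM and was not called in any comparison, though DCC control was called above early lesion without early lesion replicate 2 (0.0285).

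The collagen-binding chains Itga10 and Itga11 were highest in DCC control. Itga11 (chromosome 9, 62677826 to 62783982), a fibrillar collagen receptor chain of fibroblasts, had 31.4 and 129 CPM in DCC IFN-gamma, 350 and 379 CPM in DCC control, 0.379 and 0 CPM in TUBO and 0.0318 and 0.758 CPM in early lesion. All DCC libraries lay far above the others, and the DCC IFN-gamma libraries below those of DCC control, although they differed from each other by more than the DCC control libraries did. With interferon-gamma the log2 fold change was -2.19 ± 0.79, which missed the threshold (adjusted p = 0.106 in edgeR). It was called lower in the fit of the 2 groups alone (-2.22, 0.034) and unfiltered (-2.19, 5.83e-24). DCC control exceeded early lesion by 10.03 ± 1.24 and TUBO by 10.81 ± 1.30 (adjusted p = 0.000963 and 0.000809), where all TUBO and early lesion libraries lay below 1 CPM.

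Itga10, a collagen receptor chain best known from cartilage, had 7.92 and 17.3 CPM in DCC IFN-gamma, 55.4 and 62.7 CPM in DCC control, 0.862 and 1.83 CPM in TUBO and 1.08 and 2.5 CPM in early lesion. It fell with interferon-gamma (-2.23 ± 0.49, adjusted p = 0.0163 in edgeR), a call that ended on omitting DCC IFN-gamma replicate 1 (adjusted p = 0.0557), DCC control replicate 1 (0.0617) or DCC control replicate 2 (0.074). Of its exonic bases 33.5% overlap Gm42957 on the same strand, so reads there cannot be assigned with certainty. DCC control exceeded early lesion by 5.07 ± 0.58 and TUBO by 5.46 ± 0.59 (adjusted p = 0.000269 and 0.000188).

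Itga1, a collagen IV and collagen I receptor chain, had 5.53 and 19.5 CPM in DCC IFN-gamma, 79.7 and 79 CPM in DCC control, 32.8 and 27.5 CPM in TUBO and 44.8 and 44.3 CPM in early lesion. It fell by 2.67 on the log2 scale with interferon-gamma (SE 0.53, adjusted p = 0.0151 in edgeR), and both DCC IFN-gamma libraries lay below all other libraries. Omitting DCC control replicate 1 or 2 ended the call (adjusted p = 0.0746 and 0.117). Itga2, the other collagen receptor chain of epithelia and platelets, stayed below 10 CPM in all libraries. DCC control averaged 1.32 CPM and early lesion 7.18 CPM, a fitted log2 difference of -2.46 ± 0.63 (edgeR adjusted p = 0.0105) that ended on omitting DCC control replicate 2 (adjusted p = 0.0767). With interferon-gamma Itga2 was not called (1.84 ± 0.62, adjusted p = 0.061) but was called higher without DCC control replicate 1 (0.0315), and with that library omitted it was also lower in DCC control than in TUBO (0.0493). Itga1 was not called in DCC control against early lesion or TUBO (adjusted p = 0.265 and 0.067), while the fits of the 2 groups alone called it higher in both (0.000646 and 0.000223). Of the fibroblast and stromal markers, 4 of 8 tested were lower and 2 higher in DCC IFN-gamma against DCC control, and in DCC control 7 of 8 were higher than in early lesion and 8 of 8 higher than in TUBO. Of 6 osteoblast markers 3 were lower in DCC IFN-gamma against DCC control, and 6 were higher in DCC control than in early lesion and in TUBO. Without Spp1, their highest gene, they summed to 133 and 230 CPM in DCC IFN-gamma, 2320 and 2670 CPM in DCC control, 127 and 119 CPM in TUBO and 29.6 and 24 CPM in early lesion. Over all genes, 8.83% were lower and 12.6% higher with interferon-gamma. In DCC control 19.1% of all genes were higher than in early lesion and 22.1% higher than in TUBO. The part of both lists in the collagen-receptor differences was not tested.

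Of the integrins that bind the RGD motif, Itga5 (chromosome 15, 103344286 to 103366763), the alpha chain of the classical fibronectin receptor, had 196 and 345 CPM in DCC IFN-gamma, 155 and 163 CPM in DCC control, 0.138 and 0.114 CPM in TUBO and 0.159 and 0.937 CPM in early lesion. The DCC libraries did not overlap the others. DCC control exceeded early lesion by 8.31 ± 0.61 and TUBO by 10.24 ± 0.71 on the log2 scale (adjusted p = 6.26e-05 and 4.21e-05 in edgeR). With interferon-gamma it was 0.76 ± 0.40 and not called (adjusted p = 0.23).

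Itga8 (chromosome 2, 12106632 to 12301922), a receptor chain for nephronectin, went the other way. It had 0.147 and 0.25 CPM in DCC IFN-gamma, 1.16 and 1.66 CPM in DCC control, 234 and 219 CPM in TUBO and 580 and 512 CPM in early lesion. Log2 fold changes of DCC control were -8.56 ± 0.24 against early lesion and -7.29 ± 0.23 against TUBO, and that of TUBO against early lesion was -1.27 ± 0.17 (adjusted p = 1.1e-08, 1.45e-08 and 0.000459 in edgeR). Itga8 fell with interferon-gamma (-2.85 ± 0.35, adjusted p = 0.000338), where the 99th percentile of the olfactory genes was 1.4 CPM in DCC control replicate 1 and 0.515 CPM in replicate 2. The fit of these 2 groups alone did not call it (adjusted p = 0.0602).

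Of the beta chains that pair with Itgav, Itgb3, Itgb5 and Itgb6 differed between DCC control and both TUBO and early lesion, and Itgb1 and Itgb8 were not called. Itgav, the shared alpha chain of the vitronectin and TGF-beta-activating integrins, had 229 and 241 CPM in DCC IFN-gamma, 185 and 199 CPM in DCC control, 242 and 206 CPM in TUBO and 202 and 179 CPM in early lesion, and it was called in no comparison. Itgb5, a vitronectin receptor beta chain, had 126 and 174 CPM in DCC IFN-gamma, 191 and 219 CPM in DCC control, 52.8 and 73.3 CPM in TUBO and 57.5 and 55.8 CPM in early lesion. DCC control exceeded early lesion by 1.86 ± 0.21 and TUBO by 1.70 ± 0.21 (adjusted p = 5.41e-05 and 8.92e-05 in edgeR), without overlap. With interferon-gamma Itgb5 was not called, but it was lower without DCC IFN-gamma replicate 2 (-0.66, adjusted p = 0.0241).

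Itgb3, the beta chain of the other vitronectin receptor, was high where Itgb5 was lower. Its levels were 1.21 and 11.3 CPM in DCC IFN-gamma, 2.74 and 1.43 CPM in DCC control, 81 and 66.6 CPM in TUBO and 149 and 144 CPM in early lesion. Its fitted difference in DCC control was -6.18 ± 1 against early lesion and -5.19 ± 0.97 against TUBO (adjusted p = 0.00325 and 0.00577 in edgeR). Without DCC control replicate 2 both calls were lost (adjusted p = 0.124 and 0.147), and that against TUBO also without TUBO replicate 1 (0.0577). Its DCC IFN-gamma libraries spanned those of DCC control, and the comparison was not called (adjusted p = 0.27), but it was without DCC IFN-gamma replicate 1 (adjusted p = 3.2e-05).

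Itgb6, an epithelial beta chain that activates latent TGF-beta, had 0.293 and 0 CPM in DCC IFN-gamma, 1.77 and 1.35 CPM in DCC control, 9.35 and 9.76 CPM in TUBO and 27.7 and 24.3 CPM in early lesion. The log2 fold change of DCC control was -4.07 ± 0.57 against early lesion and -2.63 ± 0.54 against TUBO (adjusted p = 0.000289 and 0.00319 in edgeR). It fell with interferon-gamma (-3.29 ± 0.72, adjusted p = 0.00967), and the olfactory 99th percentile was 1.4 CPM in DCC control replicate 1 and 0.515 CPM in replicate 2. It was not called in the fit of the 2 groups alone (adjusted p = 0.0952) or with DCC control replicate 1 and early lesion replicate 2 both omitted (0.0861). Itgb8, whose integrin also activates TGF-beta, had 1.61 and 5.01 CPM in DCC IFN-gamma, 6.51 and 15.4 CPM in DCC control, 12.9 and 11.1 CPM in TUBO and 26.6 and 26.3 CPM in early lesion. It missed the threshold with interferon-gamma (-1.75 ± 0.56, adjusted p = 0.0595), with both DCC IFN-gamma libraries below those of DCC control. It was called lower in DESeq2 (0.0184), with upper quartile factors (0.0344), at 50 counts (0.0486), unfiltered (8.44e-06), with the replicate block (0.0339), without DCC IFN-gamma replicate 2 (-2.73, 0.00269) and without DCC control replicate 1 (-2.23, 0.0333). Against early lesion it was not called in DCC control (adjusted p = 0.103) but was without DCC control replicate 2 (-2.03, 0.0307). Itga2b, the platelet fibrinogen receptor chain, stayed at 0 to 2.72 CPM and was not called. It was called higher in DCC control than in TUBO in DESeq2 (adjusted p = 0.00461) and at 50 counts (0.0348). The fit of the 2 groups alone (0.0395) and the unfiltered fit (0.0227) also called it. Without TUBO replicate 1 its log2 fold change there was 8.7. DESeq2 called Itga2b lower in TUBO than in early lesion (0.0169). Itgb1, the beta chain shared by most of these receptors, had 892 and 1100 CPM in DCC IFN-gamma, 787 and 886 CPM in DCC control, 793 and 798 CPM in TUBO and 964 and 916 CPM in early lesion and was not called in any comparison.

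The leukocyte chains Itgax, Itgb2, Itgal, Itgb7 and Itgam were highest in DCC IFN-gamma. Itgax (chromosome 7, 128129547 to 128150657), the alpha chain of complement receptor 4 on macrophages and dendritic cells, had 36.8 and 30.3 CPM in DCC IFN-gamma, 0.67 and 0.99 CPM in DCC control, 0 CPM in both TUBO libraries and 0 and 0.401 CPM in early lesion. Interferon-gamma raised it by 5.31 ± 0.83 (adjusted p = 0.00516 in edgeR). Omitting DCC control replicate 1 or 2 ended the call (adjusted p = 0.0711 and 0.091), and the level in DCC control replicate 1 lay below the olfactory 99th percentile of that library, 1.4 CPM. Against TUBO, DCC control was at least 7.62-fold higher by a floor of 3 counts per library (adjusted p = 0.0158), and was not called when any 1 of the 4 was omitted (adjusted p = 0.0569 to 0.132). Against early lesion, Itgax and Itgal were not called in DCC control. Without early lesion replicate 2 their fitted log2 differences were 7.44 and 7.64. Both were at 0 in early lesion replicate 1, so these are not bounds. In DCC control replicate 1 both had 0.67 CPM, below that olfactory percentile of 1.4 CPM.

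Itgb2 (chromosome 10, 77530252 to 77565708), the beta chain of the leukocyte integrins, had 62.8 and 43.1 CPM in DCC IFN-gamma, 4.14 and 5.27 CPM in DCC control, 0 CPM in both TUBO libraries and 0 and 0.491 CPM in early lesion. It rose by 3.49 ± 0.70 with interferon-gamma (adjusted p = 0.0202 in edgeR), with no overlap. Omitting any 1 of the 4 libraries ended the call (adjusted p = 0.139 to 0.226), and DESeq2 did not make it (0.152). DCC control was higher than early lesion by 4.43 ± 0.92 (adjusted p = 0.012), lost without DCC control replicate 1 or 2 (0.0589 and 0.149) and in DESeq2 (0.0516), and at least 43.2-fold higher than TUBO (adjusted p = 0.00411), lost without DCC control replicate 2 (0.0748).

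Itgal, the alpha chain of LFA-1, had 31.6 and 23.6 CPM in DCC IFN-gamma, 0.67 and 1.23 CPM in DCC control, 0.0345 and 0 CPM in TUBO and 0 and 1.16 CPM in early lesion. The rise with interferon-gamma was 4.83 ± 1.20 (adjusted p = 0.0333 in edgeR) and was not called when any 1 of the 4 was omitted (adjusted p = 0.147 to 0.242). Itgb7, the beta chain of the gut-homing and CD103 integrins, had 19.5 and 17.6 CPM in DCC IFN-gamma, 3.1 and 2.1 CPM in DCC control, 0.207 and 0 CPM in TUBO and 0.0636 and 0.624 CPM in early lesion. Interferon-gamma raised Itgb7 by 2.84 ± 0.86 (adjusted p = 0.0477), also not called when any 1 of the 4 was omitted (0.101 to 0.265) and with RLE (0.0536) or upper quartile (0.0708) factors. DCC control exceeded early lesion by 2.98 ± 0.97 and TUBO by 4.53 ± 1.09 (adjusted p = 0.0381 and 0.00926). The call against early lesion was lost without DCC control replicate 1 or 2 (0.141 and 0.0987) or early lesion replicate 1 (0.106).

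Itgam, the alpha chain of Mac-1 on macrophages and neutrophils, had 33.8 and 25.3 CPM in DCC IFN-gamma, 10.3 and 7.09 CPM in DCC control, 0 CPM in both TUBO libraries and 0 and 0.892 CPM in early lesion. Interferon-gamma did not move it past the threshold (1.77 ± 0.94, adjusted p = 0.249 in edgeR), and 68.7% of its exonic bases overlap Gm49368 on the same strand. It was called higher in the fit of the 2 groups alone (1.75, 0.00593), unfiltered (1.77, 7.93e-05) and with DCC control replicate 1 and early lesion replicate 2 both omitted (2.06, 0.036). DCC control was higher than early lesion by 4.40 ± 1.17 (adjusted p = 0.0342), lost without DCC control replicate 1 or 2 (0.137 and 0.211) and in DESeq2 (0.0891). Against TUBO it was at least 79.8-fold higher (adjusted p = 0.01), not called when any 1 of the 4 was omitted (adjusted p = 0.0503 to 0.104).

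Beside these chains, 10 of 14 tested macrophage markers and 6 of 9 markers shared by leukocytes rose with interferon-gamma, and none fell, against 12.6% of all genes higher. In DCC control 7 of the 14 macrophage markers were higher and 1 lower than in early lesion, and 8 higher and 1 lower than in TUBO. Of the 9 leukocyte markers 7 were higher and 1 lower than in early lesion, and 8 higher and 1 lower than in TUBO. Shares of all genes in DCC control were 19.1% higher and 18.7% lower than in early lesion. Against TUBO they were 22.1% higher and 19.9% lower. The 15 macrophage markers in the table summed to 1470 and 1090 CPM in DCC IFN-gamma and to 120 and 121 CPM in DCC control, against 79.9 and 112 CPM in TUBO and 104 and 113 CPM in early lesion, and Cd14 alone made up all but 5.38 to 15 CPM of it in TUBO and early lesion. Marco was at 0 in both DCC IFN-gamma libraries, and C1qa was at 0 in both TUBO libraries and early lesion replicate 1. The pan-leukocyte sum was 650 and 566 CPM in DCC IFN-gamma and 73.7 and 66.9 CPM in DCC control, against 385 and 299 CPM in TUBO and 904 and 817 CPM in early lesion, and Lcp1 alone made up all but 1.26 to 4.42 CPM of it in TUBO and early lesion. T and NK cell markers summed to at most 4.26 CPM and B cell markers to at most 1.87 CPM in any library. What part leukocytes have in the leukocyte integrin levels was not tested.

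Itga4, the alpha chain of VLA-4 that binds Vcam1, had 19.4 and 19.4 CPM in DCC IFN-gamma, 13.6 and 7.01 CPM in DCC control, 0.345 and 1.26 CPM in TUBO and 0.731 and 4.01 CPM in early lesion. DCC control exceeded TUBO by 3.68 ± 0.90 (adjusted p = 0.013 in edgeR), lost without DCC control replicate 1 (0.0623) or TUBO replicate 1 (0.0819). Against early lesion it missed the threshold (adjusted p = 0.083) but was called without early lesion replicate 2 (0.00466). Itga9, a receptor chain for tenascin C and Vcam1, had 11.2 and 11 CPM in DCC IFN-gamma, 10.8 and 11.1 CPM in DCC control, 35 and 23.3 CPM in TUBO and 2.13 and 3.12 CPM in early lesion. It was highest in TUBO: TUBO exceeded early lesion by 3.48 ± 0.32 (adjusted p = 4.77e-05), and DCC control lay between, above early lesion by 2.07 ± 0.31 (0.000417) and below TUBO (-1.41 ± 0.29, 0.00298; 0.0519 without TUBO replicate 1). With interferon-gamma Itga9 was not called (0.02 ± 0.29, adjusted p = 0.972). Itgad, Itgae and Itgb2l, further leukocyte chains, stayed at 0 to 2.19 CPM and were not called. Fits of the 2 groups alone called Itgb2l lower with interferon-gamma (0.0246) and higher in DCC control than in TUBO (0.0171).

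**Figure D3:**
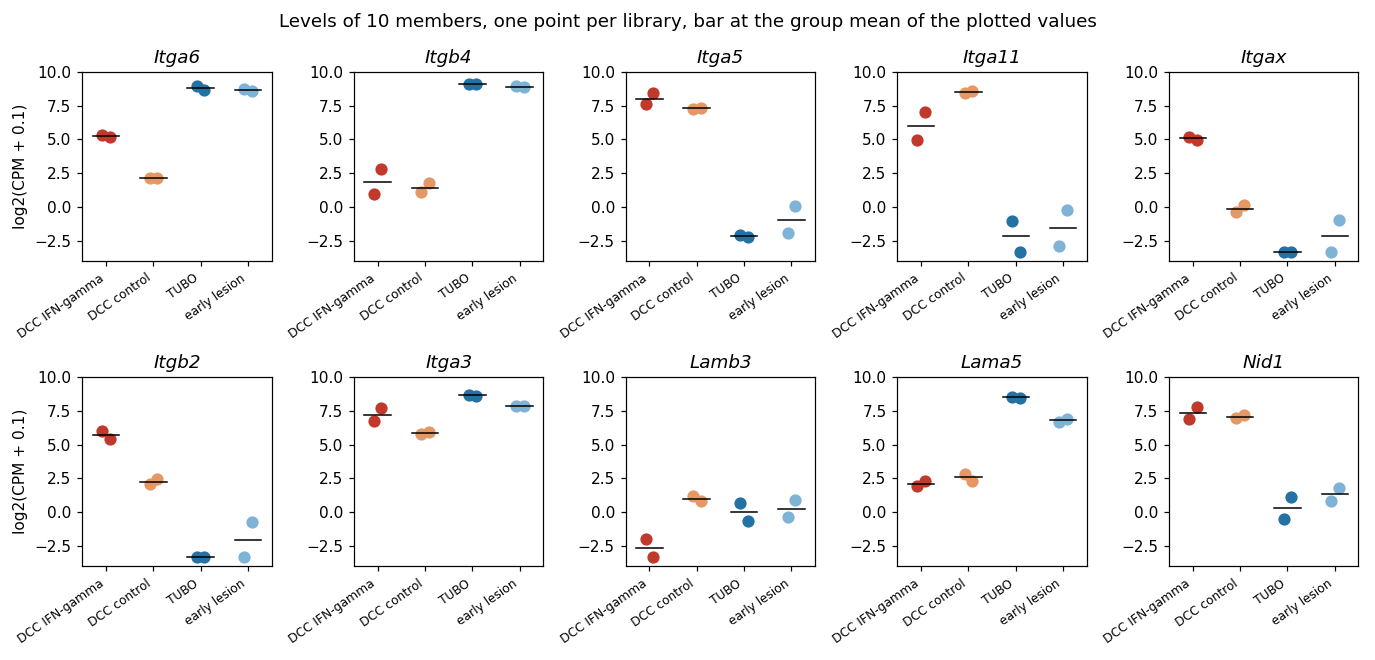
Levels of 10 members, as log2(CPM + 0.1) on the vertical axis, with 1 point per library and a bar at the mean of the plotted values, for DCC IFN-gamma, DCC control, TUBO and early lesion. Itga6, Itgb4 and Lama5 are high in TUBO and early lesion, Itga5, Itga11 and Nid1 in the DCC groups, and Itgax and Itgb2 in DCC IFN-gamma, while Lamb3 stays at or below 2.13 CPM in all libraries.

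Among the laminin alpha chains, Lama5 (chromosome 2, 180176373 to 180225859), the main alpha chain of adult epithelial basement membranes, had 3.74 and 4.71 CPM in DCC IFN-gamma, 7.12 and 4.95 CPM in DCC control, 373 and 353 CPM in TUBO and 103 and 122 CPM in early lesion. Log2 fold changes of DCC control were -4.23 ± 0.22 against early lesion and -5.92 ± 0.23 against TUBO, and TUBO exceeded early lesion by 1.70 ± 0.19 (adjusted p = 2.25e-07, 3.66e-08 and 0.000157 in edgeR). These calls held with each library left out. Lama4, the chain of vessel and mesenchymal laminins, had 47.1 to 170 CPM in DCC IFN-gamma, 142 to 171 CPM in DCC control, 246 to 273 CPM in TUBO and 265 to 284 CPM in early lesion and was called in no comparison. With interferon-gamma its log2 fold change was -0.53 ± 0.53 (adjusted p = 0.496), and -1.69 ± 0.20 without DCC IFN-gamma replicate 2 (adjusted p = 4.98e-06). The fits of the 2 groups alone called Lama4 lower in DCC control than in early lesion and TUBO (0.00086 and 0.00382).

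Lama1, the alpha chain of embryonic laminin, was highest in DCC control. It had 0.44 and 0.292 CPM in DCC IFN-gamma, 13.5 and 9.23 CPM in DCC control, 0 CPM in both TUBO libraries and 0.0636 and 2.36 CPM in early lesion. It fell with interferon-gamma (-4.93 ± 1.40, adjusted p = 0.0464 in edgeR), a change not called when any 1 of the 4 was omitted (adjusted p = 0.0862 to 0.279). DCC control was at least 104-fold higher than TUBO (adjusted p = 0.00542). TUBO was called lower than early lesion (adjusted p = 0.0442), but only early lesion replicate 2 lay above the floor of 3 counts, so no bound is given. This call was lost without TUBO replicate 1 (0.172), TUBO replicate 2 (0.199) or early lesion replicate 2 (0.211).

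Lama2, the chain of muscle and stromal laminins, had 1.69 and 2.75 CPM in DCC IFN-gamma, 14.5 and 16 CPM in DCC control, 0 CPM in both TUBO libraries and 0 and 1.78 CPM in early lesion. With interferon-gamma it was not called (-2.78 ± 1.43, adjusted p = 0.233 in edgeR). It was called lower in the fit of the 2 groups alone (-2.80, 0.00185) and unfiltered (-2.78, 9.58e-05). DCC control was at least 140-fold higher than TUBO (adjusted p = 0.0176 in edgeR), not called when any 1 of the 4 was omitted (0.0598 to 0.0892). Lama3, an alpha chain of epithelial anchoring laminins, had 2.16 and 6.38 CPM in DCC IFN-gamma, 10.2 and 12 CPM in DCC control, 0.103 and 0 CPM in TUBO and 0.127 and 2.27 CPM in early lesion. DCC control exceeded TUBO by 7.56 ± 1.60 (adjusted p = 0.00609), lost without TUBO replicate 2 (0.0643). Against early lesion Lama1, Lama2 and Lama3 were not called (adjusted p = 0.0904, 0.0941 and 0.0701), and all of them were called without early lesion replicate 2 (0.000909, 0.000159 and 0.00252), the library with more reads outside genes. Lama2 was also called without early lesion replicate 1 (0.00738).

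Lamb1 and Lamb2 made up nearly all beta chain RNA per kb. Lamb1, the broadly used beta chain, had 339 and 457 CPM in DCC IFN-gamma, 424 and 425 CPM in DCC control, 194 and 200 CPM in TUBO and 206 and 193 CPM in early lesion. It was higher in DCC control than in early lesion by 1.09 ± 0.17 and than in TUBO by 1.11 ± 0.17 (adjusted p = 0.000531 and 0.000453 in edgeR). Lamb2, the beta chain of synaptic and kidney laminins, had 54.3 and 66 CPM in DCC IFN-gamma, 125 and 136 CPM in DCC control, 91.6 and 94.7 CPM in TUBO and 88.1 and 89.1 CPM in early lesion. It fell with interferon-gamma (-1.11 ± 0.15, adjusted p = 0.000614), which held with each library left out. DCC control lay 0.56 ± 0.15 above early lesion and 0.48 ± 0.15 above TUBO (adjusted p = 0.0134 and 0.0245). The call against early lesion was lost without DCC control replicate 2, early lesion replicate 1 or early lesion replicate 2 (0.106, 0.0938 and 0.0732), and that against TUBO when any 1 of the 4 was omitted (0.0601 to 0.157). Lamb3, a beta chain of epithelial anchoring laminins, was at 0 to 2.13 CPM and not called. With interferon-gamma it was called lower in DESeq2 (-4.7, adjusted p = 0.00497) and in the fit of the 2 groups alone (-4.57, 0.0329).

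Lamc1, the gamma chain of most laminins, had 173 and 274 CPM in DCC IFN-gamma, 187 and 210 CPM in DCC control, 445 and 367 CPM in TUBO and 282 and 262 CPM in early lesion. The log2 fold change of DCC control against TUBO was -1.03 ± 0.22 (adjusted p = 0.00308 in edgeR), no longer called once DCC control replicate 1 and early lesion replicate 2 were both omitted (0.0548). Lamc3 stayed at 0 to 1.56 CPM and was not called. Fits of the 2 groups alone called it lower with interferon-gamma (0.0235) and higher in DCC control than in TUBO (0.0163).

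Both nidogens were highest in DCC libraries. Nid1 (chromosome 13, 13437551 to 13512269), which bridges laminin and collagen IV, had 120 and 226 CPM in DCC IFN-gamma, 124 and 146 CPM in DCC control, 0.586 and 2.02 CPM in TUBO and 1.68 and 3.39 CPM in early lesion. Nid1 was higher in DCC control than in early lesion by 5.76 ± 0.62 and than in TUBO by 6.71 ± 0.66 (adjusted p = 0.000527 and 0.000321 in edgeR), and interferon-gamma did not move it past the threshold (0.35 ± 0.49, adjusted p = 0.627). Nid2, the other nidogen, had 3.19 and 6.55 CPM in DCC IFN-gamma, 25.1 and 26.3 CPM in DCC control, 0 and 0.801 CPM in TUBO and 0 and 1.87 CPM in early lesion. With interferon-gamma it was not called (-2.40 ± 1.43, adjusted p = 0.278 in edgeR). It was called lower in the fit of the 2 groups alone (-2.42, 0.00346) and unfiltered (-2.40, 1.35e-06). DCC control exceeded TUBO by 6.02 ± 1.78 (adjusted p = 0.0355), not called when any 1 of the 4 was omitted (0.0801 to 0.22). Against early lesion it missed the threshold (adjusted p = 0.063) and was called without early lesion replicate 2 (0.0122).

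Set against each other per kb of exon, the chains formed distinct repertoires. Among the beta chains Itgb1 made up 77.4% and 78.7% of the summed CPM per kb in DCC IFN-gamma, 76.9% and 76.5% in DCC control, 63.7% and 63.3% in TUBO and 66.8% and 66.6% in early lesion. Itgb5 was second in the DCC groups, and Itgb4 was second in TUBO and early lesion. Among the alpha chains Itga5 led in DCC IFN-gamma at 34.5% and 38.6%, Itga11 in DCC control at 46% and 46.8%, Itga3 in TUBO at 38.5% and 41% and Itga8 in early lesion at 41.3% and 39.5%. Lama4 led the laminin alpha chains in DCC IFN-gamma, DCC control and early lesion and Lama5 in TUBO, at 59.1% and 60.4%. These shares use the exon union of each gene, which counts exons of rare transcripts, and they describe RNA, not protein on the cell surface.

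**Figure D4:**
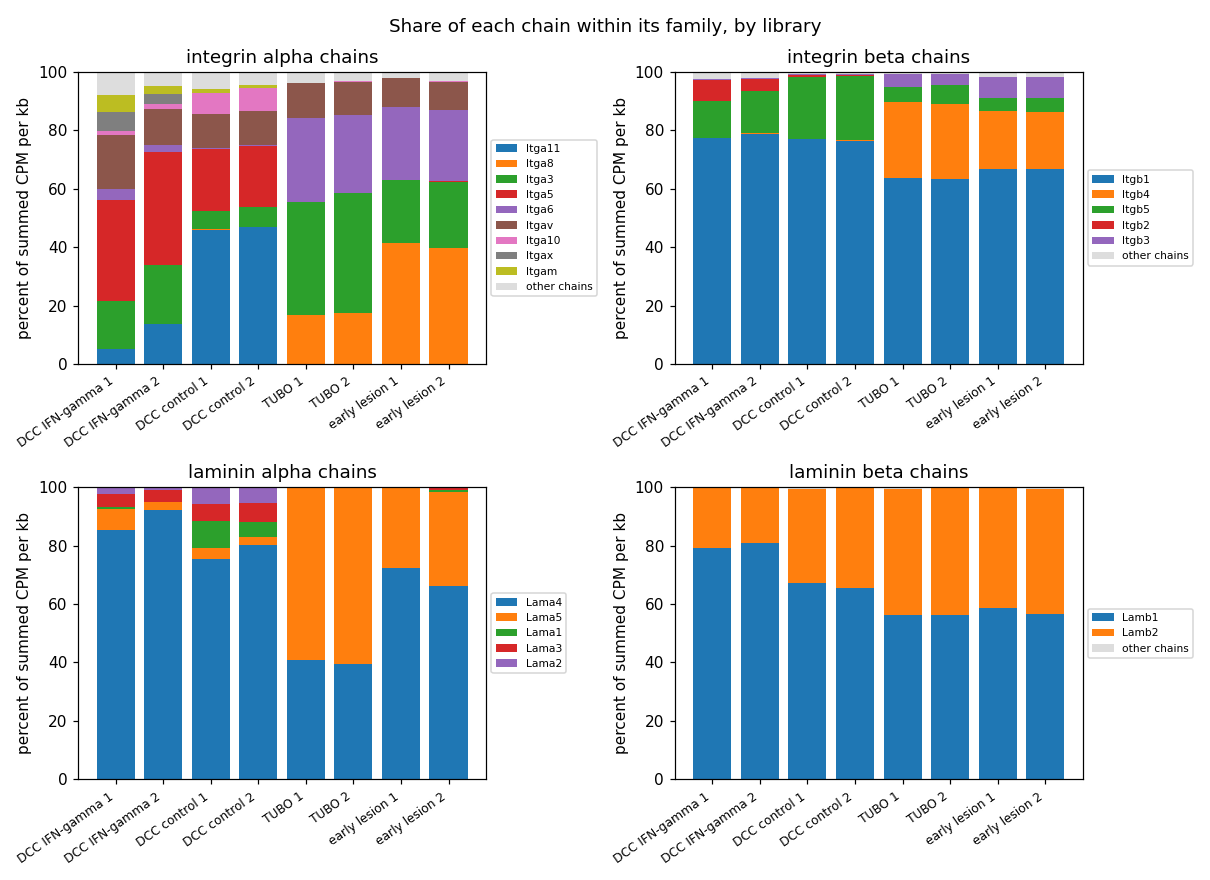
Share of each chain in the summed CPM per kb of exon of its family (vertical axis, percent) in each of the 8 libraries, for integrin alpha, integrin beta, laminin alpha and laminin beta chains. Itga11 takes 46% and 46.8% of the alpha chains in DCC control and 5.31% and 13.8% in DCC IFN-gamma.

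Counts of partner genes are set beside the share of all genes called, which was 21.4% with interferon-gamma, 37.7% in DCC control against early lesion, 42% against TUBO and 24.1% in TUBO against early lesion. Of 27 tested adhesome genes, which link integrins to actin, 9 were higher and 3 lower in DCC IFN-gamma, or 44.4%. Pxn, the adaptor paxillin, averaged 127 ± 12 CPM in DCC IFN-gamma and 40.3 ± 3.59 CPM in DCC control (SD, n = 2 each), with a fitted difference of 1.66 ± 0.15 on the log2 scale (edgeR adjusted p = 5.11e-05). In DCC control against early lesion 6 were higher and 8 lower (51.9%), against TUBO 13 higher and 10 lower (85.2%), and in TUBO against early lesion 4 higher and 10 lower (51.9%). Parvb, which binds integrin-linked kinase, averaged 54.5 ± 10.4 CPM in DCC control and 0.134 ± 0.189 CPM in early lesion (log2 fold change 8.85 ± 0.58, adjusted p = 9.69e-06). Vcl, vinculin of focal adhesions, averaged 6.95 ± 0.71 CPM in TUBO and 341 ± 30.8 CPM in early lesion (-5.62 ± 0.24, adjusted p = 9.19e-07).

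Of 22 tested integrin ligands, 4 were higher and 8 lower in DCC IFN-gamma, against 12.6% of all genes higher and 8.83% lower. Icam1, the ligand of the Itgb2 integrins, averaged 146 ± 5.51 CPM in DCC IFN-gamma and 3.54 ± 0.874 CPM in DCC control (5.34 ± 0.28, adjusted p = 4.4e-06 in edgeR). Tnc, tenascin C, a ligand of Itga9, averaged 142 ± 49 CPM in DCC IFN-gamma and 3300 ± 76.2 CPM in DCC control (-4.54 ± 0.26, adjusted p = 2.95e-06). In DCC control 16 of 22 ligands were higher and 4 lower than in early lesion (90.9% called), and 17 higher and 4 lower than in TUBO (95.5%), and in TUBO 3 were higher and 8 lower than in early lesion (50%). Npnt, nephronectin, the ligand of Itga8, averaged 88.8 ± 3.94 CPM in TUBO and 20.1 ± 2.81 CPM in early lesion (2.14 ± 0.25, adjusted p = 0.00022).

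Of 21 basement membrane partners, 3 were higher and 6 lower in DCC IFN-gamma (42.9%, against 21.4% of all genes), and 5 higher and 6 lower in DCC control against early lesion (52.4%, against 37.7%). Against TUBO 6 were higher and 6 lower in DCC control (57.1%, against 42%), and in TUBO against early lesion 5 were higher and 4 lower (42.9%, against 24.1%). Hspg2, perlecan, which nidogen also binds, averaged 1160 ± 15.1 CPM in DCC control and 2.28 ± 1.25 CPM in early lesion (9.03 ± 0.61, adjusted p = 3.28e-05 in edgeR). Tinagl1, a matrix protein of basement membranes, averaged 140 ± 16.6 CPM in DCC IFN-gamma and 16.1 ± 0.0771 CPM in DCC control (3.13 ± 0.17, adjusted p = 1.86e-06). Of 9 hemidesmosome and tetraspanin partners, Plec, plectin, the cytoskeletal partner of Itgb4, was the only one called with interferon-gamma, at 2270 ± 182 CPM in DCC IFN-gamma and 999 ± 27.5 CPM in DCC control (1.18 ± 0.18, adjusted p = 0.00139). That is 11.1% of this list, below the 21.4% of all genes. The other comparisons called 2 higher and 3 lower in DCC control against early lesion (55.6%), 2 higher and 2 lower against TUBO (44.4%, near the 42% of all genes), and 1 higher in TUBO against early lesion (11.1%, below 24.1%).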

How the data were processed

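RNA from 8 mouse libraries in 4 groups of 2 was sequenced after RNeasy extraction and Nugen Ovation library preparation, per the labels' protocols. The authors deposited 1 table of raw read counts per gene symbol. Per the submitters' processing notes, TopHat, HTSeq 0.6.1 and mm10 were used; the annotation and strand setting are not given in the sources used here. Overlapping and antisense genes therefore cannot be told apart. The 5 closing lines, reads not assigned to a gene, held 35.2% to 63.7% of counted reads and stayed out of library sizes and tests. The line of reads on no feature held 18.3% to 49.2%. In the gene column, 27 names read like dates.

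CPM used TMM library sizes. Tests were edgeR 4.0.16 (R 4.3.3) quasi-likelihood fits, robust, with 1 model of 4 group means over 8 libraries. The model had 4 residual degrees of freedom and a common biological coefficient of variation of 0.4158. Between the 2 libraries of a group, chi-square per degree of freedom was 160 in DCC IFN-gamma, 17.4 in DCC control, 33.5 in TUBO and 18.5 in early lesion. The groups share 1 spread, and whether this understates errors with interferon-gamma was not tested. filterByExpr (minimum count 10) left 17069 genes. Calls are Benjamini-Hochberg adjusted p under 0.05 over these genes, and SE is the log2 fold change over the square root of F. CPM per kb used exon unions of GENCODE M21 (GRCm38). The floor was 3 counts, 0.0953 to 0.182 CPM, which covers counting error only. The test was checked on simulated data, in genes above a minimum level. It called 58% to 64% of 2-fold changes and 95% to 98% of 4-fold changes per comparison, and 7 to 12 unchanged genes. Whether these rates hold for the members, whose spread between libraries differs by gene and group, was not tested. With interferon-gamma some members that changed more than 4-fold were called, such as Itga1 (6.37-fold lower, edgeR adjusted p = 0.0151). Others were not, such as Lama2, Nid2 and Itga11 (6.87-, 5.28- and 4.57-fold lower, edgeR adjusted p = 0.233, 0.278 and 0.106). A member not called may therefore still differ. Alternatives were upper quartile and RLE factors, an unfiltered table, at least 50 counts in at least 2 libraries, DESeq2 1.42.0, fits of 2 groups, a replicate block and left-out libraries.

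Members averaging at least 10 CPM in a group and called at least once are given by library, others by range and counts, except 1 member and 1 motif that are not reported here, and from each partner list up to 3 called genes per comparison, the largest changes at 10 CPM or more, could be named; a selection of these was made after their values were seen. The members and lists were chosen with earlier results of these data known. The promoter windows come from RefSeq (GRCm38.p6), which held 25 members.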

Additional observations from a re-analysis of the deposited data

How the results depend on the processing

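No called member reversed direction under any alternative run, while 77 of 1919 member values changed sign with no call under either setting. With no filter the members called became 12 higher and 11 lower in DCC IFN-gamma against DCC control, 18 higher in DCC control against early lesion, and 5 higher and 15 lower in TUBO against early lesion. Fits of the 2 groups alone called 10 lower with interferon-gamma, and 5 higher and 6 lower in TUBO against early lesion, and DESeq2 called 9 lower there. Adjusted p-values were missing from DESeq2 for 661 to 2979 genes per comparison. With DCC control replicate 1 and early lesion replicate 2 both omitted, 17 were higher in DCC control against early lesion and 1 lower in TUBO against early lesion. With each library left out in turn, the calls ranged from 3 to 6 higher and 3 to 8 lower in DCC IFN-gamma, from 7 to 18 higher and 8 to 9 lower in DCC control against early lesion, from 10 to 11 higher and 8 to 11 lower against TUBO, and from 2 to 2 higher and 1 to 11 lower in TUBO against early lesion. A left-out library leaves its group with 1, assumed to vary like the others. Without TMM factors the summed level per kb in early lesion was 717, against 661. Upper quartile factors moved the median of all genes by -0.2 on the log2 scale with interferon-gamma and by 0.11 in DCC control against TUBO. Between libraries of the same replicate number, correlations of deviations were 0.09 with interferon-gamma, -0.43 in DCC control against early lesion, -0.05 against TUBO and 0.1 in TUBO against early lesion. With 2 libraries per group, which mirror each other, these cannot show whether replicate numbers pair the samples. The replicate block called 4 higher with interferon-gamma and 1 lower in TUBO against early lesion, and the crossed block, chosen after seeing the data, called 12 higher and 10 lower in DCC control against early lesion. The cause of these shifts was not tested. Members under 1 CPM rest on few reads, and their changes are limited by depth.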
